A study of Mus musculus with 12 samples.

Results

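The collagen chain genes are the mouse genes whose symbol is Col, a type number, the letter a and a chain number, with nothing after it, as in Col3a1. There were 44 such genes among the 52636 genes of the table, namely 11 fibrillar chains, 6 basement membrane chains and 27 others. The only other symbol starting with Col and a digit, Col4a3bp, was left out by this rule. Transcripts were measured by polyA RNA sequencing of hepatocytes, the main cell of the liver, taken from fatty livers of 3 wild-type (WT) mice and 3 mice with a knockout (KO) of Ptprk, a receptor-type tyrosine phosphatase. From each mouse, hepatocytes low in fat and hepatocytes high in fat were separated on a density gradient, which was also meant to remove dead hepatocytes and non-parenchymal liver cells. The 12 libraries therefore form 4 groups of 3, a low-fat and a high-fat group of each genotype. Within a genotype, libraries of both fractions with the same number come from 1 mouse. Mice are numbered by the replicate numbers of the sample titles, and the column labels give the animals other numbers. A WT and a KO mouse of the same number are not paired by the labels. The labels give no strain, age, sex or diet, and do not say how the KO was made or whether it spares other liver cells.

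Collagens are secreted proteins whose chains wind around each other into a stiff helical rod. Fibrillar collagens such as types I, III and V pack into the fibers of connective tissue, type IV forms the meshwork of basement membranes, and the remaining types tether fibers, form fine filaments or sit in cell membranes. In the liver, hepatic stellate cells, which lie between hepatocytes and the sinusoidal endothelium, are the best known source of fibrillar collagen, and hepatocytes are known for type XVIII collagen, the precursor of endostatin.

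Promoters are shown for 4 of these genes because they cover the courses seen between the fractions: Col3a1 and Col5a1 rose in the high-fat libraries, Col5a3, a chain of the same collagen type as Col5a1, showed no common direction, and Col15a1 was lower in every mouse. Each line holds the 250 bases before the start site, 5′ to 3′ on the gene's own strand, from RefSeq on GRCm38.p6. They are chr1:45311288-45311537 on the plus strand for Col3a1, chr2:27886175-27886424 on the plus strand for Col5a1, chr9:20815068-20815317 on the minus strand for Col5a3 and chr4:47207762-47208011 on the plus strand for Col15a1. Capitals mark the letters TATAAA of the TATA box, the letters of the box named CCAAT, or the letters GGGCGG of the GC box, each searched on both strands.
Col3a1: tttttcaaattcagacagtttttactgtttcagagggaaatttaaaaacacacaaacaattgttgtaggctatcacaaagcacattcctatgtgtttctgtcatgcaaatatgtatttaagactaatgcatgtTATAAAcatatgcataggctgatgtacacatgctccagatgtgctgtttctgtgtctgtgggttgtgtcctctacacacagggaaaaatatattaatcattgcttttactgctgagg
Col5a1: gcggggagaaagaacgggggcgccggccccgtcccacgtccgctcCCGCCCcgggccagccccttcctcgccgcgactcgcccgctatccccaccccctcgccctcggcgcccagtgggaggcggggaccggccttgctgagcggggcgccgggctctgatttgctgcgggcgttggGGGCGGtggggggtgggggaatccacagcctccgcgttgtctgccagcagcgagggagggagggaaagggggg
Col5a3: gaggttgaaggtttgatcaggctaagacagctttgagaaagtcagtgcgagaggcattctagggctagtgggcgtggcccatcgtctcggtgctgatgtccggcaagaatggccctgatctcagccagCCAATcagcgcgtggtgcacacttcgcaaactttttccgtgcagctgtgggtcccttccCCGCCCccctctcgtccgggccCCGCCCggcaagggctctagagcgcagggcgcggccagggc
Col15a1: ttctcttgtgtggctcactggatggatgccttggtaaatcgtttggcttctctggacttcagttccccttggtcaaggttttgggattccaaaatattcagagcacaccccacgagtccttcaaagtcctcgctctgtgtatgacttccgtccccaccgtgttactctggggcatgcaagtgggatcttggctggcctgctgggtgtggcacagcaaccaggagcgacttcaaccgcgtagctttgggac

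In these windows Col3a1 held a TATA box and no GC box, Col5a1 held 2 GC boxes, Col5a3 held a CCAAT box and 2 GC boxes, and Col15a1 held none of the 3 motifs. RefSeq entries were found for 35 of the 44 genes, with 38 start sites in all. A TATA box lay in 5 of the 38 windows (13.2%) and in 12.4% of 32851 mouse promoter windows of the same length. A CCAAT box lay in 13 windows (34.2%, against 33.8% of all promoters), and a GC box in 22 windows (57.9%, against 32.7%). A match to these letters describes the sequence only.

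Values are gene read counts that had been scaled to 20 M reads per library and rounded up, and are given as reads per 20 M, always in the order of mice 1, 2 and 3. The estimated depth was 15.08 to 25.03 M reads, so that 3 reads correspond to 2.397 to 3.979 reads per 20 M, a floor that covers counting error only. Ptprk was at 2174 to 2883 reads per 20 M in the WT and at 1117 to 1364 in the KO libraries, so its transcript was lower but not lost in the libraries labelled KO. The hepatocyte markers Alb and Apoa1, which encode albumin and apolipoprotein A-I, were high in all libraries, with Alb at 220636 to 268701 reads per 20 M. The libraries labelled hepatocytes also held transcripts of other liver cells, whose markers are given with the results they moved with.

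Of the 44 collagen genes, 27 had a value above 0 in all 12 libraries, and 4 (Col6a4, Col9a1, Col11a1 and Col28a1) were at 0 in all of them. The test used genes with at least 10 reads per 20 M in at least 3 libraries, which 24 collagen genes met: 8 fibrillar, 4 basement membrane and 12 other chains. One gene made up most of the collagen reads. Col18a1, the type XVIII chain, took 86.4% to 91.8% of them in the low-fat and 73.8% to 88.8% in the high-fat libraries. Divided by exon length, its mean level was 5776 reads per 20 M per kb in low-fat and 5133 in high-fat libraries. The next level per kb belonged to Col5a3, a type V chain, at 301 and 325, and its range over libraries stayed far below that of Col18a1.

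Below these came Col27a1 (87.4 reads per 20 M per kb in low-fat and 108 in high-fat libraries), Col4a2 (74.6 and 114), Col4a1 (62.6 and 123) and Col15a1 (49.9 and 35.2). In low-fat libraries the ranges of these 4 genes overlapped, so their order is not settled. In high-fat libraries Col15a1 (18.6 to 51.4) lay below Col4a1 (66.3 to 251) and Col4a2 (65.1 to 223) throughout. The type I and III chains that make up scar tissue were rare: Col3a1 stood in place 13 of 24 in the low-fat libraries with 3.50 reads per 20 M per kb and in place 8 in the high-fat libraries with 26.3. Col1a1 reached 1.50 and 9.40, and Col1a2 reached 1.52 and 8.97. Col14a1, a chain that coats collagen fibers, was the most abundant of the strongly rising members, at 17.3 and 96.4.

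The comparison of fractions asked which collagen transcripts differ between hepatocytes rich and poor in fat. Averaged over both genotypes, 11 of the 24 collagen genes tested rose in the high-fat libraries and none fell (limma, adjusted p under 0.05). Among all 16563 genes tested, 5.05% rose and 0.725% fell. The 11 were the fibrillar chains Col1a1, Col1a2, Col3a1, Col5a1 and Col5a2, the type VI chains Col6a1, Col6a2 and Col6a3, the fiber-associated Col14a1 and Col16a1, and the transmembrane Col13a1. For each of the 11, all 6 high-fat libraries lay above all 6 low-fat libraries. The 11 were picked by the test on these same libraries, so the separation is no further support. Its share over all genes was not computed. The median log2 difference was 0.89 over the 24 genes and -0.023 over all genes tested.

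Col1a1, Col6a2 and Col16a1 passed the filter only through their high-fat libraries, so they could enter the test only by being higher there. Of the 21 collagen genes that reached the minimum in 3 low-fat libraries, 8 rose, beside 3.94% of the 15028 genes that did so. By class, 4 of 7 fibrillar, 0 of 4 basement membrane and 4 of 10 other chains among these 21 rose. With a term for each mouse, which compares the fractions within animals, 14 collagen genes rose and 1 fell, beside 6.76% and 4.26% of all genes. The additional ones were Col4a1, Col4a2 and Col12a1, which rose, and Col15a1, which fell.

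**Figure D1:**
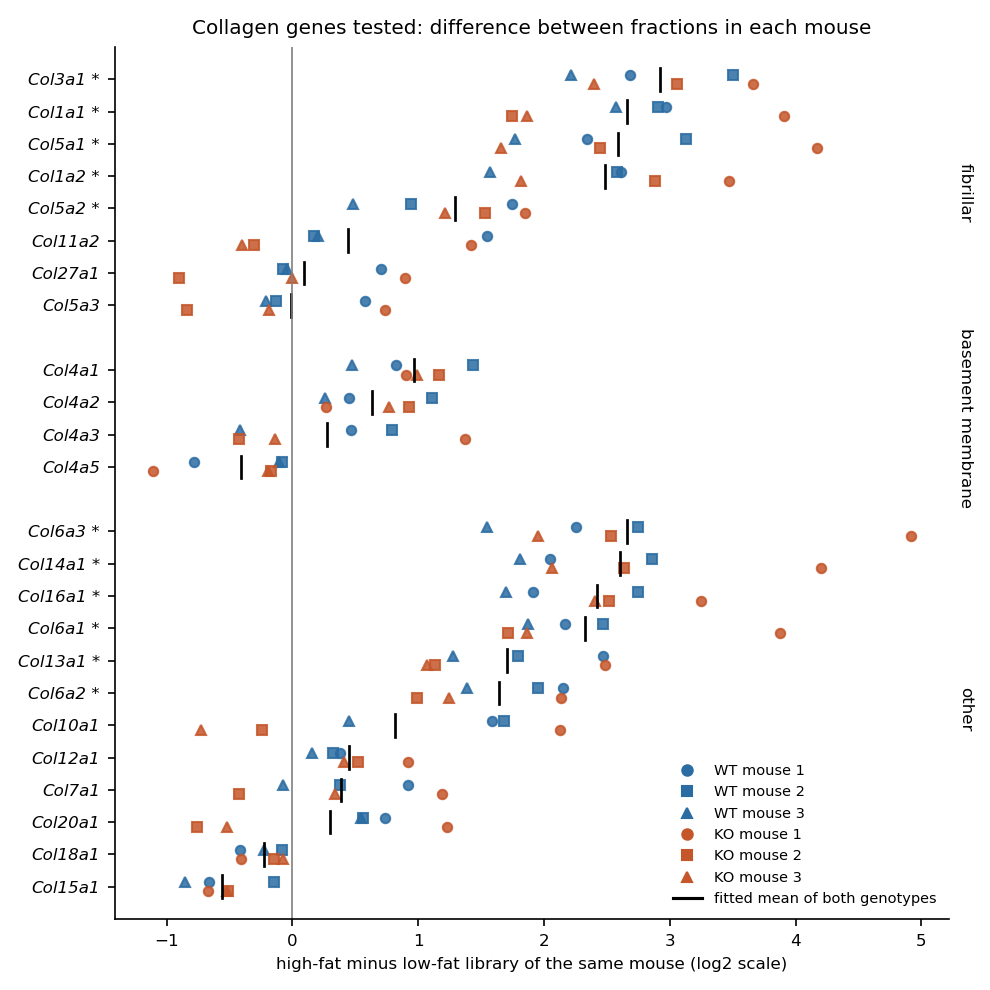
Difference between the high-fat and the low-fat library of each mouse on the scale log2(value + 2), after rescaling between libraries, for the 24 collagen genes tested, grouped by class. Each symbol is 1 mouse, the black bar is the fitted mean of both genotypes, and an asterisk marks the 11 genes that passed the test without the mouse term; 14 genes lie to the right of 0 in all 6 mice and Col4a5, Col15a1 and Col18a1 lie to the left in all 6.

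Type III collagen, the fine reticular fiber of the liver, is represented by a single chain gene. Col3a1 (ENSMUSG00000026043, chromosome 1, 45311538 to 45349706, plus strand, GRCm38) was at 55, 14 and 39 reads per 20 M in WT low-fat and 389, 175 and 203 in WT high-fat libraries. In KO mice it was at 15, 27 and 56 in low-fat and 239, 241 and 299 in high-fat libraries. The lowest high-fat library held over 3 times the level of the highest low-fat library. The log2 difference was 2.92 (SE 0.37, limma adjusted p = 0.00285), with a mean of 36.0 ± 20.7 against 256 ± 116 in WT and 32.7 ± 21.1 against 260 ± 34.1 in KO (SD, n = 3 each).

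Type I collagen, the main fiber of scar tissue, is built from the chains encoded by Col1a1 and Col1a2. Col1a2 was at 27, 11 and 25 in WT low-fat, 187, 74 and 84 in WT high-fat, 7, 12 and 31 in KO low-fat and 109, 102 and 113 reads per 20 M in KO high-fat libraries. Col1a1 was at 7, 3 and 9, then 73, 35 and 68, then 1, 16 and 23, and 47, 59 and 88 in the same order of groups. Both were low in every low-fat library, and the single low-fat value of 1 lies below the floor. The log2 differences were 2.49 for Col1a2 (SE 0.35, limma adjusted p = 0.00323) and 2.66 for Col1a1 (SE 0.48, limma adjusted p = 0.00936).

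Type V collagen sits inside type I fibers and sets their width. Col5a1 was at 34, 11 and 29 in WT low-fat, 192, 109 and 112 in WT high-fat, 5, 20 and 35 in KO low-fat and 138, 119 and 113 reads per 20 M in KO high-fat libraries, a log2 difference of 2.59 (SE 0.39, limma adjusted p = 0.0038). Col5a2 was at 19, 21 and 22, then 73, 41 and 34, then 6, 9 and 19, and 30, 30 and 46, a log2 difference of 1.29 (SE 0.27, limma adjusted p = 0.0171). Without the mice numbered 1, Col5a2 had a limma adjusted p of 0.168 and no longer passed. Col5a3, far more abundant, was at 2048, 3293 and 1664 in WT low-fat and 3260, 2919 and 1554 in WT high-fat libraries. In KO mice Col5a3 was at 1610, 2172 and 1505 in low-fat and 3023, 1223 and 1305 in high-fat libraries, and its groups overlapped, with a log2 difference of -0.0095 (SE 0.25, limma adjusted p = 0.991).

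**Figure D2:**
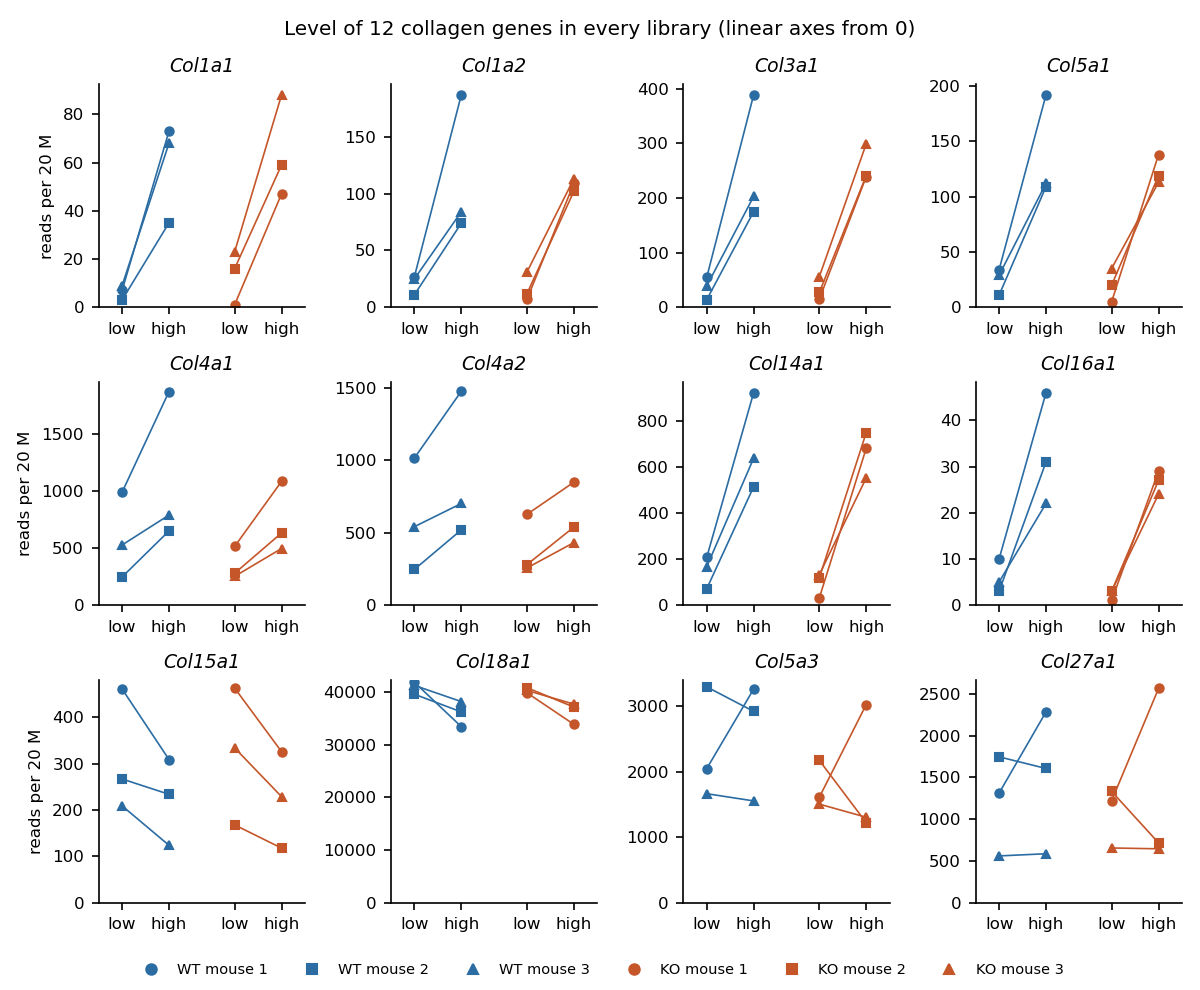
Level of 12 collagen genes in every library, in reads per 20 M on linear axes that start at 0; lines join both fractions of 1 mouse, blue for WT and orange for KO. The fibrillar chains Col1a1, Col1a2, Col3a1 and Col5a1 and the fiber-associated Col14a1 and Col16a1 lie higher in all high-fat libraries, Col18a1 stays between 33375 and 41788, and Col5a3 and Col27a1 go up in the mice numbered 1 and not in the others as a group.

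Fiber-associated collagens, which bind to the surface of fibers and link them to the matrix around them, were represented by Col12a1, Col14a1, Col16a1 and Col20a1. Col14a1 was at 208, 71 and 167 in WT low-fat, 923, 514 and 638 in WT high-fat, 31, 118 and 132 in KO low-fat and 681, 749 and 552 reads per 20 M in KO high-fat libraries (log2 difference 2.60, SE 0.36, limma adjusted p = 0.00298). Col16a1 was at 10, 3 and 5, then 46, 31 and 22, then 1, 3 and 3, and 29, 27 and 24 (2.42, SE 0.28, limma adjusted p = 0.00285). Its low-fat values lie at or near the floor in most libraries, so the size of its difference depends on the pseudocount: it was 1.46 with a pseudocount of 10 and 2.86 with 0.5. Col12a1 differed less, at 89, 81 and 96, then 124, 99 and 116, then 38, 70 and 66, and 83, 102 and 87 in the same order of groups. It was higher at high fat in 6 of 6 mice, by 0.45 on the log2 scale (SE 0.15, limma adjusted p = 0.13, and 0.0375 with the mouse term).

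Type VI collagen forms beaded filaments near basement membranes from the chains of Col6a1, Col6a2 and Col6a3. Over the 6 low-fat libraries the levels were 1 to 15 reads per 20 M for Col6a1, 4 to 11 for Col6a2 and 0 to 14 for Col6a3, and over the 6 high-fat libraries they were 36 to 60, 23 to 45 and 44 to 69. The log2 differences were 2.33 (SE 0.39, limma adjusted p = 0.00659), 1.64 (SE 0.24, limma adjusted p = 0.00329) and 2.66 (SE 0.46, limma adjusted p = 0.00701). The transmembrane collagen Col13a1 was at 17 to 36 in low-fat and 60 to 222 in high-fat libraries (log2 difference 1.70, SE 0.27, limma adjusted p = 0.00515). Its highest value, 222, came from the high-fat library of WT mouse 1.

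Of the basement membrane chains, Col4a1 and Col4a2 rose only with the term for each mouse, and Col4a3 and Col4a5 in no fit. Col4a1 and Col4a2, which encode the type IV network of most tissues, lie head to head on chromosome 8 and overlap by 22 bases at their starts. Col4a1 was at 988, 246 and 526 in WT low-fat, 1870, 649 and 788 in WT high-fat, 513, 278 and 251 in KO low-fat and 1083, 631 and 495 reads per 20 M in KO high-fat libraries. Col4a2 was at 1015, 246 and 541, then 1476, 519 and 701, then 626, 279 and 256, and 848, 538 and 431. The ranges of both fractions overlapped, and WT mouse 1 was highest in each, but both genes were higher at high fat in 6 of 6 mice. The log2 difference of Col4a1 was 0.96 (SE 0.37, limma adjusted p = 0.184, and 0.00411 with the mouse term). That of Col4a2 was 0.63 (SE 0.38, limma adjusted p = 0.424, and 0.0184 with the mouse term).

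Col4a3 and Col4a5, chains of the kidney type of basement membrane, did not pass in either direction. Col4a5 was lower at high fat in 5 mice and equal, at 50, in both fractions of WT mouse 3, at 31 to 82 in low-fat and 15 to 50 reads per 20 M in high-fat libraries (log2 difference -0.41, SE 0.29, limma adjusted p = 0.502). Col4a3 ranged from 5 to 14 in low-fat and 7 to 25 in high-fat libraries (0.27, SE 0.28, limma adjusted p = 0.666).

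Col15a1 and Col18a1 encode the multiplexins, basement membrane zone collagens from which anti-angiogenic fragments are cut. Col15a1 was at 461, 267 and 209 in WT low-fat, 309, 234 and 124 in WT high-fat, 463, 168 and 334 in KO low-fat and 326, 118 and 229 reads per 20 M in KO high-fat libraries. The fractions overlapped across mice, yet it was lower at high fat in 6 of 6 mice, by a log2 difference of -0.56 (SE 0.34, limma adjusted p = 0.418; SE 0.096 and adjusted p = 0.011 with the mouse term). Col18a1 was at 41788, 39527 and 41199 in WT low-fat, 33375, 36175 and 38132 in WT high-fat, 39799, 40772 and 40246 in KO low-fat and 33817, 37092 and 37651 in KO high-fat libraries. All 6 high-fat libraries lay below all 6 low-fat libraries, a pattern whose share over all genes was not computed. The log2 difference of Col18a1, -0.23 (SE 0.088), had a limma adjusted p of 0.188 and did not pass, nor did it with the mouse term (adjusted p = 0.13). After rescaling between libraries, 9.96% of all genes tested were higher and 11.6% were lower in the high-fat library of all 6 mice, beside 14 and 3 of the 24 collagen genes; the 3 include Col4a5, and without rescaling they were 2. Because Col18a1 outweighed the rest, the summed collagen level was 43829 to 48308 reads per 20 M in low-fat and 42089 to 45254 in high-fat libraries, while without Col18a1 it was 3583 to 6520 and 4763 to 11879.

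A further 7 collagen genes were higher in the high-fat library of both mice numbered 1 but not of all 6 mice: Col4a3, Col5a3, Col7a1, Col10a1, Col11a2, Col20a1 and Col27a1. This pattern was read after the values had been seen, and its share over all genes was not computed. In all, 21 of the 24 collagen genes tested were higher at high fat in both mice numbered 1. Col27a1, a fibrillar chain best known from cartilage, went from 1313 to 2284 in WT mouse 1 and from 1222 to 2564 in KO mouse 1. In WT mice 2 and 3 it went from 1746 to 1607 and from 561 to 587, and in KO mice 2 and 3 from 1332 to 717 and from 656 to 646. Col11a2, another cartilage chain, went from 18 to 60 and from 20 to 64 in the mice numbered 1, and lay between 7 and 21 in the libraries of the other mice. Neither passed the test (limma adjusted p = 0.937 for Col27a1 and 0.682 for Col11a2). The high-fat libraries of the mice numbered 1 also held the highest sums of 9 Kupffer cell and macrophage markers, 10671 and 9307 reads per 20 M, against 1976 to 2214 in the other high-fat libraries. The same 2 libraries held the highest sums of endothelial markers, 17768 and 11277 against 5412 to 8677, and of stellate cell markers, 5087 and 4052 against 2759 to 3876. The part of these cells in the values of the 7 genes was not tested.

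Markers of other liver cells moved with the fractions. All 12 stellate cell markers tested rose, each higher in 6 of 6 mice (limma). Of these, Cygb, Des, Hand2 and Lhx2 passed the filter only through high-fat libraries, and the other 8 reached the minimum in 3 low-fat libraries. The sum of all 12 was 204 to 930 reads per 20 M in low-fat and 2759 to 5087 in high-fat libraries. The defining markers Lrat and Reln together were at 73 to 384 and 1143 to 1606. All 11 markers of sinusoidal endothelium rose as well (sum 1318 to 3139 and 5412 to 17768), as did 7 of 9 of Kupffer cells and macrophages (450 to 1277 and 1976 to 10671), of which Marco entered only through high-fat libraries. In bulk libraries such as these, fewer cells of a type and less RNA per cell cannot be told apart.

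Markers of portal fibroblasts, smooth muscle, bile ducts and mesothelium were read in the same way. Of 10 portal fibroblast markers 4 could be tested and none passed, with sums of 100 to 150 in low-fat and 112 to 174 in high-fat libraries, with Entpd2 at 64 to 119 over all libraries; the defining marker Eln was at 0 to 11 and Thy1 at 0 to 30. Of 5 smooth muscle markers 2 were tested and none passed (80 to 114 and 75 to 183, with Tagln at 58 to 148), with Acta2, a marker of activated stellate cells as well, at 0 to 7. Of 6 biliary markers 2 were tested and none passed without the mouse term (371 to 507 and 271 to 364), with Sox9 at 126 to 381, Spp1 at 64 to 272, Krt19 at 0 to 7 and Krt7 at 0 to 5. None of the 4 mesothelial markers could be tested, and Msln and Upk3b were at 0 in all low-fat libraries. The 8 hepatocyte markers summed to 559148 to 617694 and 568585 to 641413, and 1 of them was called higher. This was Cyp2e1, at 25608 to 47248 in low-fat and 55304 to 70040 in high-fat libraries. Of the 8, 2 had a positive log2 difference, and with the mouse term 1 was called lower.

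The collagen transcripts were set beside the stellate cell markers library by library. The type I and III chains Col1a1, Col1a2 and Col3a1 summed to 23 to 110 reads per 20 M in low-fat and 284 to 649 in high-fat libraries. Their ratio to the sum of the 12 stellate cell markers was 0.0737 to 0.142 in the low-fat libraries, with a median of 0.0915. In the high-fat libraries the ratio was 0.0975 to 0.169, with a median of 0.106, so that the ranges overlapped. Within mice the ratio was higher at high fat in 5 of 6, and lower in KO mouse 1, a description with no test. KO mouse 1 had both the lowest low-fat stellate sum, 204, and the lowest level of 10 of the 11 collagen genes that rose. Its low-fat library was also lowest in endothelial (1318) and Kupffer cell and macrophage markers (450). The part of stellate cells in the collagen differences was not tested.

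**Figure D3:**
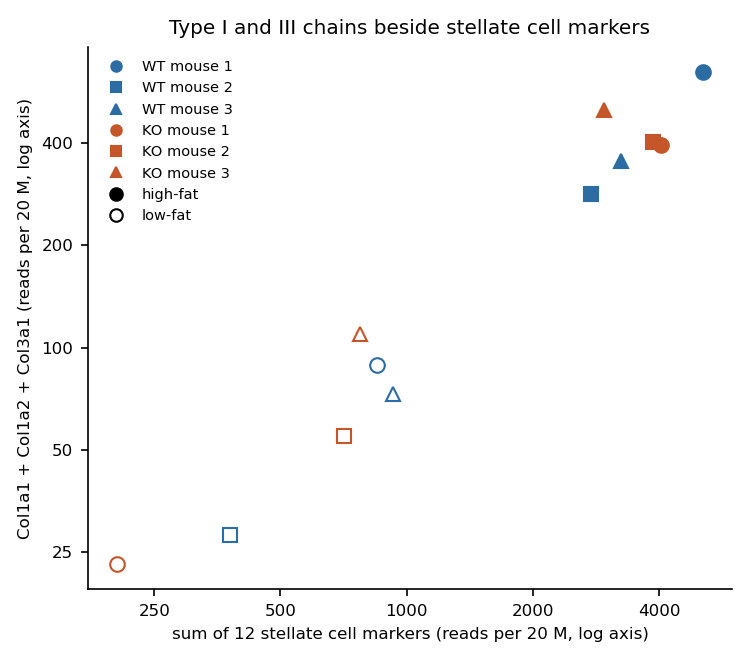
Sum of Col1a1, Col1a2 and Col3a1 (vertical, reads per 20 M, log axis) beside the sum of 12 stellate cell markers that include no collagen (horizontal, reads per 20 M, log axis), 1 symbol per library, open for low-fat and filled for high-fat. The low-fat libraries lie at 23 to 110 and the high-fat libraries at 284 to 649, and both sums are separate between the fractions.

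Chains of 1 collagen type were also compared with each other, as ratios chosen after the levels had been seen and therefore given without a test. The ratio of Col4a1 to Col4a2 was 0.82 to 1.0 in the low-fat and 1.12 to 1.28 in the high-fat libraries, and was higher at high fat in 6 of 6 mice. The mean log2 difference of this ratio was 0.34 ± 0.16 (SD, n = 6 mice). The ratio of Col5a1 to Col5a2 was 0.53 to 2.16 in the low-fat and 2.44 to 4.54 in the high-fat libraries, also higher in 6 of 6 mice. Some low-fat values behind this type V ratio are small, with Col5a1 at 5 and Col5a2 at 6 in KO mouse 1. The ratios within types I and VI rest on small low-fat values, some of them near the floor, with Col1a1 at 1 to 23 and Col1a2 at 7 to 31. The ratio of Col6a2 to Col6a3 reached 9 in a library where Col6a3 was at 0 and 0.5 was added to both.

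**Figure D4:**
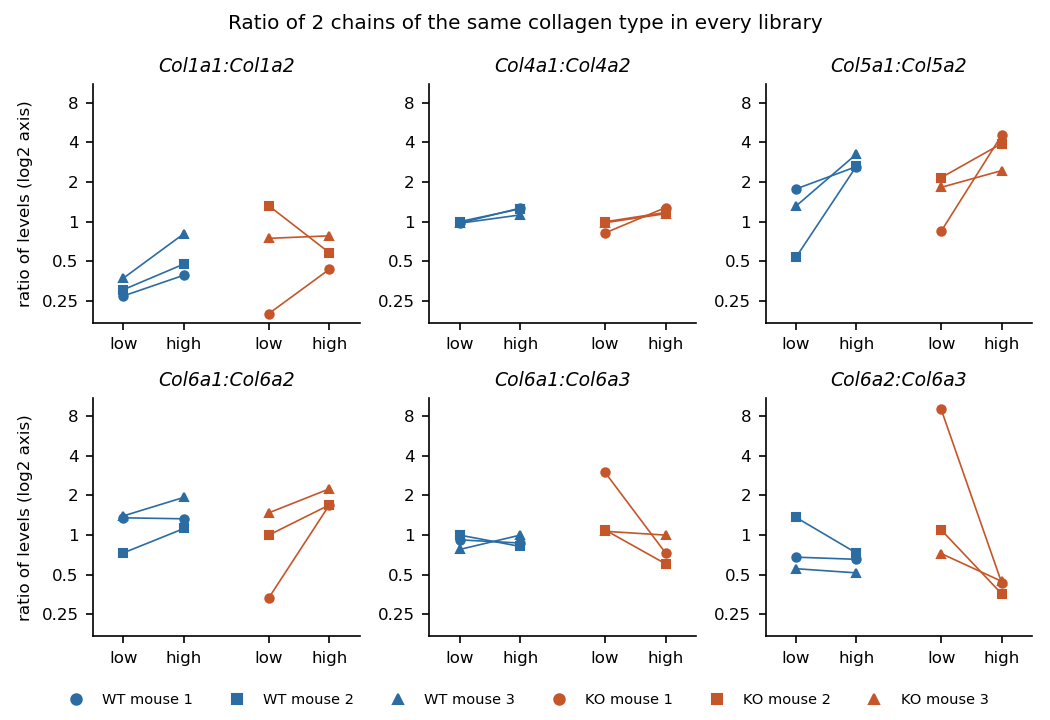
Ratio of the levels of 2 chains of the same collagen type in every library, after adding 0.5 to both, on a log2 axis shared by the panels; lines join the fractions of 1 mouse. The ratio of Col4a1 to Col4a2 moves from 0.82 to 1.0 in the low-fat to 1.12 to 1.28 in the high-fat libraries, and that of Col6a2 to Col6a3 reaches 9 in a low-fat library where Col6a3 was at 0.

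Genes that make, bind or break down collagen were read from a list of 68, of which 53 could be tested. In the high-fat libraries 24 of them rose and none fell, beside 5.05% and 0.725% of all genes. With the mouse term 27 rose and 1 fell, beside 6.76% and 4.26% of all genes. Of the 53, 11 did not reach the minimum in 3 low-fat libraries. Among these, Mmp9 passed through libraries of both fractions, at up to 25 in low-fat and up to 15 in high-fat libraries. The rest of the 11 passed only through high-fat libraries and could enter only by being higher there. Of the other 42, 16 rose without the mouse term, beside 3.94% of all genes that reached the minimum in low-fat libraries. The 12 with the smallest p were the collagen receptor Ddr2, the laminin chains Lamb1, Lamb2 and Lama4, the small proteoglycans Bgn, Lum and Dcn, the collagen-binding Sparc, the crosslinking enzyme Loxl2, the gelatinase Mmp2 and the protease inhibitors Timp2 and Timp3. Their log2 differences ran from 1.38 for Timp3 (SE 0.22) to 2.83 for Dcn (SE 0.41), with limma adjusted p from 0.00258 to 0.00522, all higher in 6 of 6 mice; Lum, Loxl2 and Mmp2 are among the 11. Dcn is also among the stellate cell markers.

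By role, calls without the mouse term were counted among the 42 that reached the minimum in low-fat libraries. Of these, 3 of 4 matrix partners, 7 of 12 basement membrane partners and 2 of 3 genes of degradation rose. So did 1 of 2 of propeptide cleavage and 2 of 6 receptors. Of 2 crosslinking genes and 1 gene of secretion and transcription, 0 rose. Loxl4, a crosslinking gene named after its value was seen, was lower at high fat in 6 of 6 mice. With the mouse term it was called lower. Of 12 enzymes and chaperones of hydroxylation, glycosylation and folding 1 rose. That gene was Serpinh1, the collagen-specific chaperone (log2 difference 1.95, SE 0.34, limma adjusted p = 0.00801), named here after its value was seen, as are P4hb and Fn1. P4hb, a subunit of the prolyl hydroxylase that also folds other secreted proteins, was at 22168 to 29558 reads per 20 M in all libraries (-0.16, SE 0.092, limma adjusted p = 0.391). Fn1, fibronectin, which hepatocytes secrete into plasma, was at 51827 to 83538 (-0.10, SE 0.16, limma adjusted p = 0.798).

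Within each genotype the same comparison rests on 3 mice. In WT no collagen gene passed (limma, smallest adjusted p = 0.0717), and 0% of all genes did; 11 of the 24 had an unadjusted p under 0.05, beside 11.2% of all genes. After rescaling, the WT libraries did not overlap for 12 collagen genes that were higher and for Col18a1, which was lower, beside 9.62% and 7.78% of all genes. Without rescaling, Col10a1 left these 12, with both fractions meeting at 14, and Col12a1 joined them. In KO 5 collagen genes rose and none fell, beside 0.809% and 0.0302% of all genes: Col1a2, Col3a1, Col5a1, Col14a1 and Col16a1. With the mouse term 9 rose, beside 1.31% of all genes, and Col1a1, Col4a1, Col6a1 and Col6a3 were added. The KO count fell to 0 when any 1 of the low-fat libraries of mice 1 and 2 or of the 3 high-fat libraries was left out, and when only the 6 KO libraries were fitted. The median log2 difference over the 24 genes was 0.98 in WT and 0.84 in KO.

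Whether the difference between fractions depends on Ptprk was tested directly as an interaction. No collagen gene passed, 0 of 24 had an unadjusted p under 0.05, and 0% of all genes passed (0.145% at an unadjusted p under 0.05). The estimates were imprecise: for Col3a1 the difference between the genotypes' log2 differences was 0.24, with a 95% interval from -1.37 to 1.85. For Col14a1 it was 0.73 (-0.84 to 2.30), for Col4a1 0.11 (-1.51 to 1.73) and for Col18a1 0.031 (-0.35 to 0.42). Apart from that of Col18a1, each of these intervals holds a 2-fold difference in at least 1 direction.

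The comparison of KO with WT asked whether loss of Ptprk changes collagen transcripts within a fraction. In the low-fat libraries no collagen gene passed (limma, adjusted p = 0.9999 for each), beside 0.00604% of all genes, a single gene, Ptprk. An unadjusted p under 0.05 was found for Col5a2 and Col12a1, beside 1.73% of all genes. Col12a1 was at 89, 81 and 96 in WT and at 38, 70 and 66 in KO low-fat libraries, which do not overlap (log2 difference -0.63, SE 0.22). Col4a3 did not overlap either, at 11, 14 and 13 in WT and 5, 10 and 8 in KO libraries (-0.63, SE 0.40); such a gap with KO lower was found for 3.01% of all genes. In the high-fat libraries no collagen gene passed (limma, adjusted p = 0.9998 for each) and none had an unadjusted p under 0.05, beside 0.00604% and 2.02% of all genes.

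**Figure D5:**
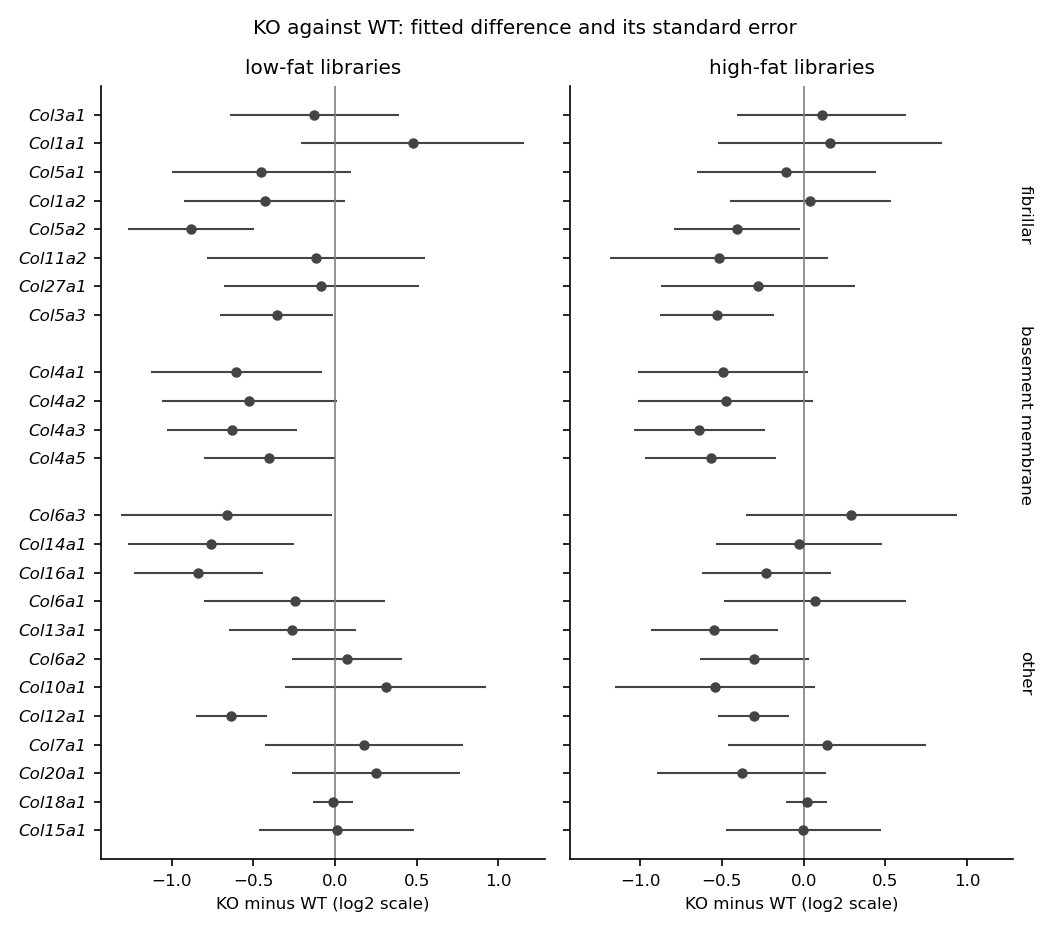
Fitted log2 difference of KO against WT with its standard error (horizontal bars) for the 24 collagen genes, in low-fat libraries on the left and high-fat libraries on the right, 3 mice per genotype. Most points lie left of 0, the 4 basement membrane chains in both fractions, and none passed the test.

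Most estimates were below 0: 18 of 24 in low-fat and 17 of 24 in high-fat libraries, beside 8484 and 8841 of all 16563 genes tested. The medians were -0.31 and -0.29, beside -0.0036 and -0.014 over all genes. The fibrillar medians were -0.24 and -0.19, those of the basement membrane chains -0.56 and -0.53, and those of the other chains -0.13 and -0.13. Without the mice numbered 1 the medians over the 24 genes were 0.074 and -0.028, so the lean of the 24 as a set depends on mice numbered 1. The low-fat median was -0.091 without WT mouse 1 alone and -0.096 without KO mouse 1 alone. At high fat it was -0.019 without WT mouse 1 alone and -0.28 without KO mouse 1 alone. Medians by class were not computed without the mice numbered 1. In mice 2 and 3, low-fat Col4a1 was at 246 and 526 in WT and at 278 and 251 in KO libraries. Low-fat Col4a3 was at 14 and 13 in WT and at 10 and 8 in KO libraries of these mice. Low-fat Col4a2 was at 246 and 541 in WT and at 279 and 256 in KO libraries, and low-fat Col4a5 at 48 and 50 and at 47 and 56. High-fat Col4a1 of mice 2 and 3 was at 649 and 788 in WT and at 631 and 495 in KO libraries. In the same order, high-fat Col4a2 was at 519 and 701 and at 538 and 431. High-fat Col4a3 was at 25 and 10 and at 7 and 7, and high-fat Col4a5 at 44 and 50 and at 42 and 48. WT mouse 1 had the highest high-fat level of 10 of the 11 collagen genes that rose between fractions. In the low-fat libraries the KO estimate was also below 0 for 12 of 12 stellate, 11 of 11 endothelial and 9 of 9 Kupffer cell and macrophage markers, with medians of -0.54, -0.67 and -0.80 and none called. In the high-fat libraries it was below 0 for 8 of 12, 11 of 11 and 7 of 9 of these markers, with medians of -0.027, -0.43 and -0.11. KO mouse 1 had the lowest low-fat sums of these stellate, endothelial and Kupffer cell and macrophage markers, 204, 1318 and 450. Marker estimates without the mice numbered 1 were not computed. The part of these cells was not tested.

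The intervals set how much difference these data could have missed. For Col18a1 the 95% interval of KO against WT was -0.29 to 0.26 for low-fat and -0.25 to 0.29 for high-fat libraries, which leaves out a 2-fold change either way. For Col3a1 it ran from -1.26 to 1.01 and from -1.03 to 1.25. For 22 of the 24 genes in each fraction the interval held a 2-fold change in at least 1 direction.

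The 20 collagen genes that did not pass the filter reached at most 19 reads per 20 M, in Col4a4, and 12 of them at most 3. Col24a1, a fibrillar chain, was at 0, 0 and 0 in WT low-fat, 7, 3 and 4 in WT high-fat, 0, 1 and 1 in KO low-fat and 5, 4 and 7 in KO high-fat libraries. It was thus above the floor of most high-fat libraries and at or below it in all low-fat libraries. Col4a4, which pairs with Col4a3 in basement membranes, was at 1 to 6 in low-fat and 2 to 19 in high-fat libraries. Col2a1, the cartilage fibril, and Col26a1 each had a value of 1 in a single library. The rest were Col4a6, Col6a5, Col6a6, Col8a1, Col8a2, Col9a2, Col9a3, Col17a1, Col19a1, Col22a1, Col23a1 and Col25a1, none above 10, and the 4 at 0 throughout.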

How the data were processed

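The deposited table holds 1 value per gene and library, and each of its 12 columns was matched to a library by name (0 columns were left unused). The deposited values are a score: the authors scaled gene read counts to 20 M per library and rounded them up, a reading based on column sums of 20.01 M and on gaps among low values. Depth was estimated from the spacing of low values. The genome build mm9 is named in the submitters' processing notes; the aligner, read counter, annotation and strandedness are not given in the sources used here, so reads of overlapping antisense genes (for Col18a1, Slc19a1) cannot be told apart. Of the table's identifiers 99.6% are in GENCODE M21 (GRCm38), which gave positions and exon lengths.

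Values were rescaled with the trimmed mean of M values (TMM) and transformed as log2(value + 2), which understates changes of low genes. The 16563 genes that reached 10 in 3 or more libraries were tested. limma 3.58.1 in R 4.3.3, with an intensity trend, fitted 4 group means on all 12 libraries; p-values are two-sided, Benjamini-Hochberg adjusted over all genes tested, and called under 0.05. Same-numbered fractions come from 1 mouse by the labels, which is where the pairing comes from. Correlations of their deviations from group means were 0.469 to 0.582 in WT and -0.0087, 0.044 and 0.460 in KO mice. A second fit had a term per mouse (in KO against WT, per replicate number, though the labels pair no WT with a KO mouse). The fit without the mouse term was tested on simulated data, with noise drawn separately for each library. Changes were placed only in genes of a mean level that several of the called collagen genes, such as Col16a1, did not reach.

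All 44 collagen genes are named. Members, gene lists (68 collagen pathway genes, of which those called, at most 12 with the smallest p, are named, and the marker lists) and tests were chosen with earlier results of these data known. The marker lists hold 12 stellate, 10 portal fibroblast, 5 smooth muscle, 11 endothelial, 9 Kupffer cell and macrophage, 6 biliary, 4 mesothelial and 8 hepatocyte genes. Alternatives were other pseudocounts (0.5 and 10), no filter, other scalings, the replicate terms, fits of only the libraries compared and leaving out libraries.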

Additional observations from a re-analysis of the deposited data

How the results depend on the processing

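The number of collagen genes called between fractions over both genotypes was 11 with each of the 12 libraries left out in turn, and 10 without both mice numbered 1, a setting chosen after seeing the data. Without the filter it was 12 of 40, with Col24a1 added. The KO count of 5 was the least steady: it was 0 in a fit of only the libraries compared, 9 with the replicate block, 11 with the replicate block and TMM over all genes, 0 without both mice numbered 1, and 0 to 5 over the 6 fits that left out a library; the last 2 kinds of fit use fewer samples. In WT the count was 0 throughout except for 9 with the replicate block and TMM over all genes, also chosen after seeing the data. KO against WT and the interaction gave 0 collagen genes in each alternative run. Of 459 alternative values of 24 gene results, 0 changed sign, 402 kept their side of the threshold, 38 lost the call and 19 gained it. Among the collagen genes the replicate block changed no calls beyond those given. In the gene lists some calls also changed with it, and not all of these are given. Collagen values near or below 3 reads, such as Col16a1 in most low-fat libraries and Col6a3 in that of KO mouse 1, are limited by depth. The cause of the changes in calls was not tested.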
